A study of Homo sapiens with 3 samples.

Results

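A set of 57 genes of the DNA damage response and of DNA repair was examined in RNA-seq data of parental MM468 cells and of adriamycin-resistant and paclitaxel-resistant cells derived from them. Members were chosen by their gene symbols from a list of repair and checkpoint genes, which was drawn up with earlier results of these data known, and all 57 were found among the 46427 genes of the table. MM468 stands for MDA-MB-468, an epithelial cell line of triple-negative breast cancer, and its genotype is given as wild type in all 3 libraries. The parental cells were not treated. The adriamycin-resistant cells survived adriamycin at 10 to 140 nmol/L, and the paclitaxel-resistant cells survived paclitaxel at 2 to 320 nmol/L. Adriamycin traps topoisomerase II on broken DNA, whereas paclitaxel stabilizes microtubules and does not act on DNA directly. Each line was sequenced as 1 library, and whether a resistant line is 1 clone is not given in the sources used here.

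Cells detect broken or modified DNA through sensor complexes, pass the signal to the kinases ATM and ATR, and hold the cell cycle through the effector kinases CHEK1 and CHEK2. Double-strand breaks are rejoined by homologous recombination, which copies an intact sister sequence, or by non-homologous end joining, which ligates the ends. Damaged bases, mismatched bases, bulky adducts and crosslinks are removed by base excision, mismatch, nucleotide excision and Fanconi anaemia repair, and breast cancers with defects in BRCA1 or BRCA2 are known for impaired homologous recombination.

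The libraries held 32704885 counts in parental MM468, 47567927 in adriamycin-resistant cells and 43242628 in paclitaxel-resistant cells. With 1 library per line, no difference has a replicate check, no test between lines was possible, and no SD is given. A fold change was therefore taken from the counts of the 2 libraries after TMM normalization, which scales libraries by the bulk of their genes. Its 95% interval is the exact binomial interval of the ratio of 2 counts, which covers counting error only. A gene is called higher or lower at a fold change of at least 2. The 8 epithelial markers summed to between 9398 and 10644 TPM per library, a unit corrected for gene length and library total, against 2.95 to 13.9 TPM for 5 leukocyte markers, 7.84 to 13.3 TPM for 6 fibroblast markers and 0.563 to 2.72 TPM for 4 endothelial markers. Of the fibroblast markers, COL1A2 and LUM had 0 counts in all 3 libraries. In bulk RNA, fewer cells that express a gene and less RNA per cell cannot be told apart.

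All 57 members had 100 or more counts in every library. Their counts ranged from 106 to 19471 in parental MM468, from 167 to 25317 in adriamycin-resistant cells and from 189 to 27632 in paclitaxel-resistant cells. Per length, the median member stood at 19.5 TPM in parental MM468, 22.1 TPM in adriamycin-resistant cells and 27.0 TPM in paclitaxel-resistant cells. The sum over members was 3111, 2914 and 3072 TPM. XRCC6 and XRCC5, the subunits of the Ku complex that binds broken ends, and APEX1, the main endonuclease for sites that have lost a base, were the most abundant members. Values of 3 libraries are listed with the parental cells first, adriamycin-resistant cells second and paclitaxel-resistant cells last. XRCC6 stood at 543, 402 and 517 TPM. XRCC5 stood at 325, 333 and 281 TPM, and APEX1 at 547, 518 and 329 TPM. ERCC4, a nuclease subunit of nucleotide excision repair, was the least abundant, at 1.03, 1.07 and 2.32 TPM.

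**Figure D1:**
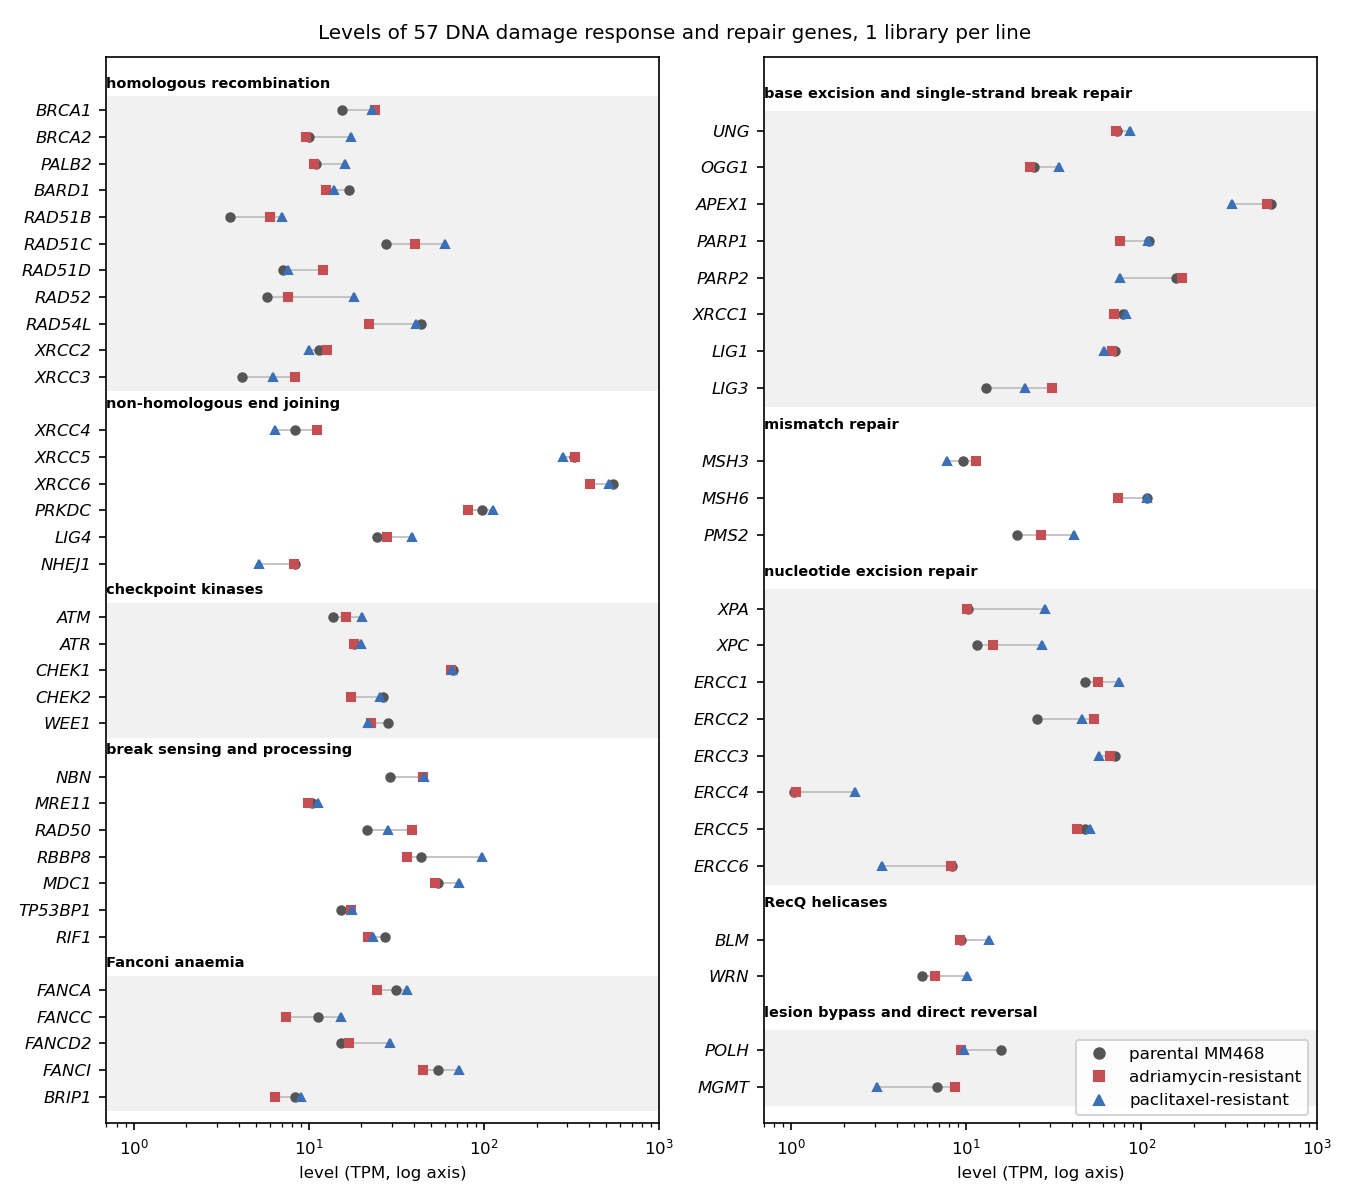
Level of each of the 57 genes in TPM (log axis), grouped by pathway, with 1 library per line (circles, parental MM468; squares, adriamycin-resistant cells; triangles, paclitaxel-resistant cells) and a grey line from the lowest to the highest library. The 3 libraries lay close together for most genes, with XRCC6, XRCC5 and APEX1 far to the right and ERCC4 at the left end, and no error can be drawn for a single library.

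In adriamycin-resistant cells, 3 members were at least 2-fold higher than in parental MM468 and 0 were at least 2-fold lower. These are 5.26% and 0.00% of the members. Among all 17950 genes compared, 10.9% were higher and 11.4% lower, and among the 13127 of them with 100 or more counts in 1 of both libraries the shares were 6.17% and 7.95%. The share of members that were higher was thus near the background, and that of members that were lower was under it. The median log2 fold change was 0.00 over the members and 0.02 over all genes compared, and 43 of the 57 members lay within 0.5 of 0 on the log2 scale. By counting error alone, the interval lay above a fold of 1 for 25 members, below it for 18 and included it for 14. The share of all genes with such intervals is not given here. Counts of intervals, here and for the groups below, therefore have no background to be read against.

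In paclitaxel-resistant cells, 3 members were at least 2-fold higher than in parental MM468 and 6 were at least 2-fold lower, which are 5.26% and 10.5% of the members. The background was 20.5% higher and 13.5% lower over 19099 genes, and 11.6% and 12.8% over the 13603 genes with 100 or more counts. The members' share was below the background for higher genes and near it for lower genes, and no test of the difference was made. The median log2 fold change was -0.12 over the members and 0.07 over all genes compared, and it became 0.10 over the members when libraries were scaled by their size only. That scaling moved the median of all genes by 0.23 on the log2 scale, and 71.2% instead of 60.2% of all genes called were then higher. The interval lay above 1 for 23 members, below it for 31 and included it for 3, again without the share of all genes.

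No member was called in the same direction in both resistant lines. The share of all genes called so is not given here, so this count has no background to be read against. Both comparisons share the parental library, so their values are given side by side below and were not correlated. In all, 14 members were called in at least 1 of the 3 comparisons and 43 in none, again without the share of all genes beside it.

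**Figure D2:**
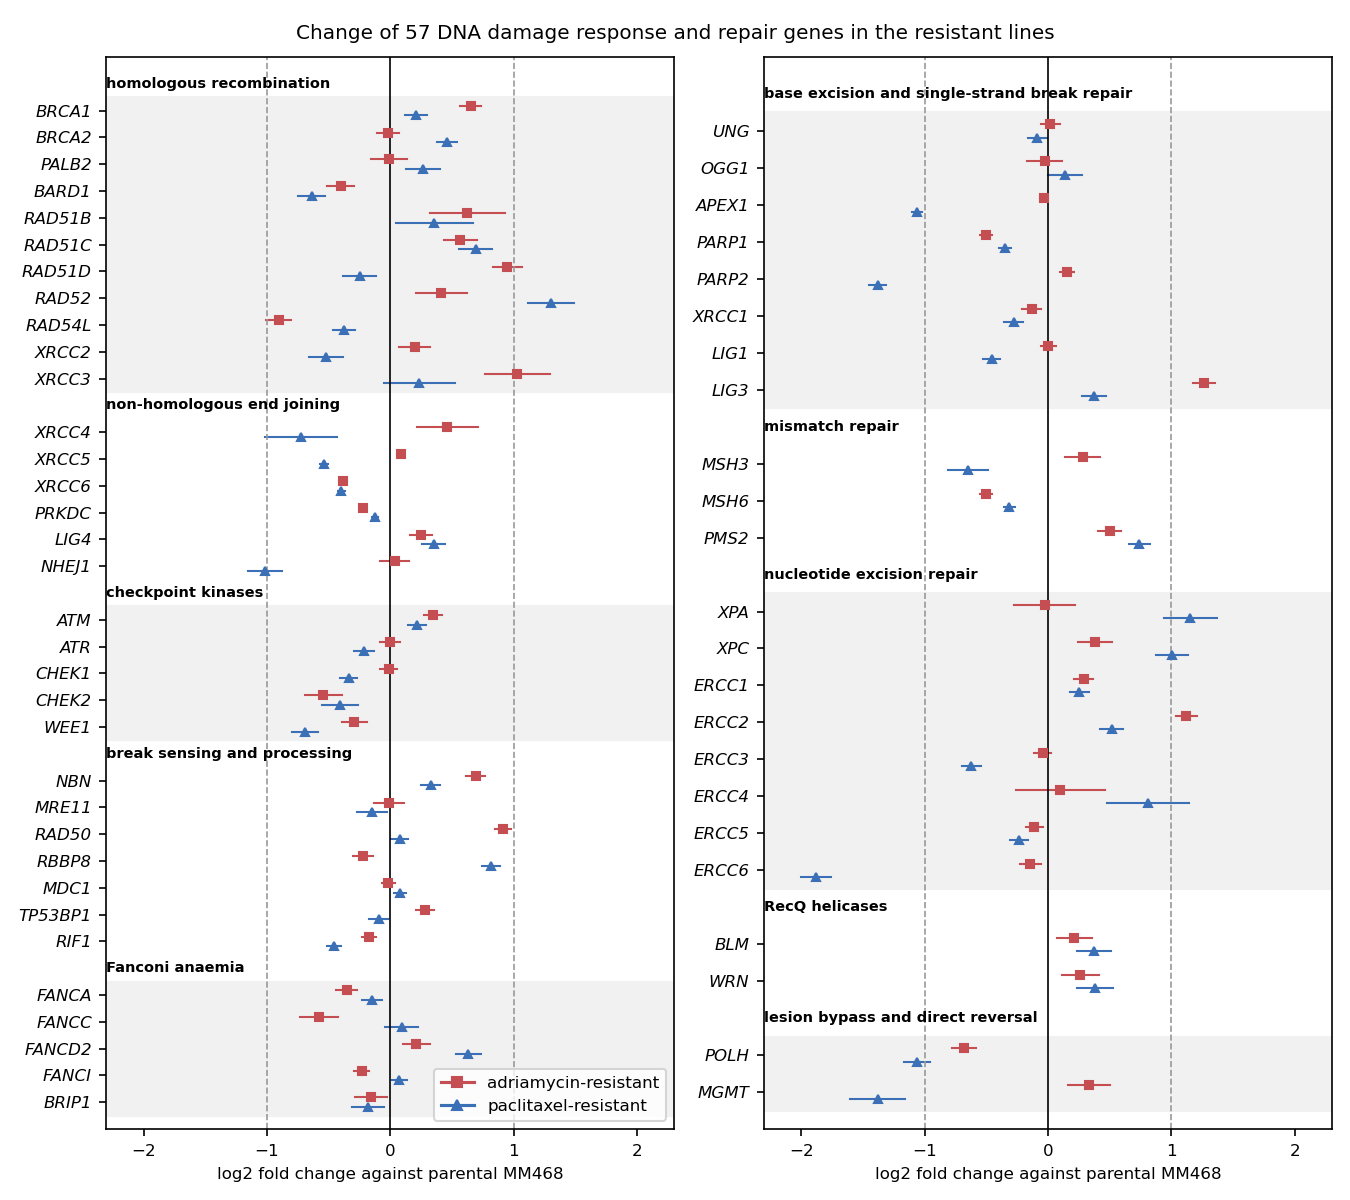
Log2 fold change of each of the 57 genes against parental MM468 in adriamycin-resistant cells (squares) and paclitaxel-resistant cells (triangles), with bars for the 95% binomial interval of the 2 counts (counting error only) and dashed lines at 2-fold. LIG3, ERCC2 and XRCC3 passed the right line in adriamycin-resistant cells, RAD52, XPA and XPC passed it in paclitaxel-resistant cells, and 6 triangles lay left of the left line, with ERCC6 farthest out at -1.88.

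Homologous recombination was the group with the highest median in adriamycin-resistant cells, at a log2 fold change of 0.41 over its 11 members, with the interval above 1 for 7 and below 1 for 2. In paclitaxel-resistant cells its median was 0.23, with 6 above and 4 below. XRCC3, a paralog of the strand-exchange recombinase, had 161, 483 and 293 counts, or 4.14, 8.31 and 6.24 TPM. It was highest in adriamycin-resistant cells, 2.04-fold (95% interval, 1.70 to 2.45) over parental MM468, and its fold over parental cells was 1.18 (0.967 to 1.43) in paclitaxel-resistant cells. Its exons share 1452 bases with KLC1 on the other strand, whose log2 fold change in adriamycin-resistant cells was 0.47.

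RAD51D, another paralog of that family, had 828, 2347 and 1078 counts, or 7.08, 12.0 and 7.61 TPM. It was 1.93-fold higher in adriamycin-resistant cells than in parental MM468 cells (1.78 to 2.09), just short of the 2-fold line, and 2.35 times lower in paclitaxel-resistant cells than in adriamycin-resistant cells (2.18 to 2.52). The other 3 members named as paralogs, RAD51B, RAD51C and XRCC2, had log2 fold changes of 0.62, 0.57 and 0.20 in adriamycin-resistant cells and of 0.35, 0.69 and -0.52 in paclitaxel-resistant cells. All 5 paralogs were thus above parental MM468 in adriamycin-resistant cells. In paclitaxel-resistant cells XRCC2 was below it, and RAD51D was below it by the counts and above it by the TPM and FPKM values.

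RAD52, which anneals single strands, had 296, 580 and 1127 counts, or 5.81, 7.60 and 18.0 TPM. It had the largest fold of the members that were higher in paclitaxel-resistant cells, 2.46 (2.16 to 2.81), and in adriamycin-resistant cells the fold was 1.33 (1.16 to 1.54). RAD54L, the motor protein of strand exchange, had 1902, 1494 and 2267 counts, or 43.7, 22.1 and 41.0 TPM. It had the lowest fold change of all members in adriamycin-resistant cells, 1.87 times lower than in parental MM468 (1.75 to 2.01), and was 1.30 times lower in paclitaxel-resistant cells (1.22 to 1.38). RAD54L shares 566 exon bases with LRRC41 on the other strand, which was lower in adriamycin-resistant cells as well, with a log2 fold change of -1.17.

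BRCA1, which with BARD1 forms the ubiquitin ligase that acts at breaks, had log2 fold changes of 0.65 in adriamycin-resistant cells and 0.21 in paclitaxel-resistant cells. BARD1 went the other way, with 1363, 1516 and 1356 counts, or 17.0, 12.5 and 14.0 TPM, and log2 fold changes of -0.40 and -0.64. BRCA2, which loads the recombinase, and PALB2, which joins it to BRCA1, were at -0.02 and -0.01 in adriamycin-resistant cells and at 0.46 and 0.27 in paclitaxel-resistant cells. These 4 genes showed no common direction.

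The non-homologous end joining group had a median log2 fold change of 0.06 in adriamycin-resistant cells and -0.47 in paclitaxel-resistant cells. That median of -0.47 became -0.24 when scaled by library size only and -0.14 with 1 added to the TPM values. In paclitaxel-resistant cells the interval lay below 1 for 5 of its 6 members, without the share of all genes beside it. NHEJ1, also known as XLF, a bridge between broken ends, had 996, 1501 and 761 counts, or 8.38, 8.29 and 5.20 TPM. It was 2.03 times lower in paclitaxel-resistant cells than in parental MM468 cells (1.84 to 2.23), and its fold in adriamycin-resistant cells was 1.02 (0.944 to 1.11). XRCC4, the partner of the ligase LIG4, had 202, 409 and 189 counts, or 8.32, 11.2 and 6.40 TPM. It was on opposite sides of parental MM468 in the resistant lines, with log2 fold changes of 0.46 and -0.73, and 2.33 times lower in paclitaxel-resistant cells than in adriamycin-resistant cells (1.96 to 2.79).

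LIG4 itself had 1478, 2582 and 2913 counts, or 24.5, 27.9 and 38.6 TPM, and log2 fold changes of 0.25 and 0.35, so the ligase and its partner were on opposite sides of parental MM468 in paclitaxel-resistant cells. XRCC6 had 17041, 19220 and 20020 counts and was 1.30 and 1.32 times lower than in parental MM468 in adriamycin-resistant and paclitaxel-resistant cells. XRCC5 was at 0.08 and -0.54 on the log2 scale, and PRKDC, the catalytic subunit of the kinase that Ku recruits, at -0.22 and -0.12.

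Among the checkpoint kinases no member passed 2-fold in any comparison. ATM, which responds to double-strand breaks, had the highest fold change of the 5 in both lines, with 2480, 4639 and 4454 counts, or 13.8, 16.4 and 20.2 TPM, and log2 fold changes of 0.35 and 0.21. CHEK2, the effector of ATM, had 725, 732 and 846 counts, or 26.5, 17.3 and 25.4 TPM, and log2 fold changes of -0.54 and -0.41. WEE1, which inhibits the mitotic kinase CDK1, had 1479, 1775 and 1416 counts, or 28.4, 22.7 and 21.7 TPM, and was 1.62 times lower in paclitaxel-resistant cells (1.502 to 1.74). ATR, which senses single-stranded DNA at stalled forks, and its effector CHEK1 were at -0.01 and -0.02 in adriamycin-resistant cells and at -0.22 and -0.34 in paclitaxel-resistant cells. The median of the group in paclitaxel-resistant cells was -0.34, with the interval below 1 for 4 of the 5 kinases, and -0.11 when scaled by library size only.

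Of the genes that sense and process breaks, RAD50 and NBN, which with the nuclease MRE11 form the first complex at a broken end, were higher in adriamycin-resistant cells. RAD50 had 2623, 7278 and 4273 counts, or 21.4, 39.1 and 28.4 TPM, and was 1.89-fold higher in adriamycin-resistant cells (1.80 to 1.97) and 1.05-fold higher in paclitaxel-resistant cells (1.00 to 1.11). NBN stood at log2 fold changes of 0.69 and 0.33, whereas MRE11 stood at -0.01 and -0.15. RBBP8, also known as CtIP, which starts the trimming of ends, had 2118, 2669 and 5754 counts, or 43.9, 36.6 and 97.4 TPM. It was 1.76-fold higher in paclitaxel-resistant cells (1.67 to 1.85) and 1.17 times lower in adriamycin-resistant cells (1.10 to 1.24). Between the resistant lines RBBP8 was 2.00-fold higher in paclitaxel-resistant cells (1.91 to 2.09), which before rounding was just under the 2-fold line.

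The chromatin adaptors of break signalling did not pass 2-fold in any comparison. RIF1, which limits end trimming, had 4792, 6258 and 5390 counts, or 27.2, 21.8 and 23.3 TPM, and log2 fold changes of -0.17 and -0.46. MDC1 was at -0.02 and 0.08, and TP53BP1 at 0.28 and -0.10.

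The Fanconi anaemia genes, which act on crosslinks between strands, had medians of -0.23 in adriamycin-resistant cells and 0.07 in paclitaxel-resistant cells. FANCC, a part of the core complex, had 706, 696 and 1163 counts, or 11.2, 7.45 and 15.2 TPM, and was 1.49 times lower in adriamycin-resistant cells (1.34 to 1.66). FANCD2, the protein that the core complex marks with ubiquitin, had 1150, 1958 and 2753 counts, or 15.2, 17.0 and 29.3 TPM, and was 1.55-fold higher in paclitaxel-resistant cells (1.44 to 1.66). Its partner FANCI was at -0.23 and 0.07 on the log2 scale, FANCA of the core complex at -0.36 and -0.15, and BRIP1, a helicase that binds BRCA1, at -0.16 and -0.18 with 836, 1103 and 1139 counts, or 8.33, 6.38 and 9.01 TPM. Between the resistant lines the interval was above 1 in paclitaxel-resistant cells for 4 of the 5 genes, with a median of 0.27.

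Base excision and single-strand break repair held the member with the highest fold change in adriamycin-resistant cells and 2 of the 6 that were lower in paclitaxel-resistant cells. LIG3, the ligase that seals single-strand breaks with XRCC1 and the ligase of mitochondria, had 1323, 4668 and 2654 counts, or 13.0, 30.9 and 21.6 TPM. It was 2.40-fold higher in adriamycin-resistant cells (2.25 to 2.55) and 1.30-fold higher in paclitaxel-resistant cells (1.21 to 1.39). XRCC1 itself was at -0.13 and -0.28 on the log2 scale, and LIG1, the ligase of replication, at 0.00 and -0.46. LIG3 shares 3754 exon bases with RFFL on the other strand, which had 720, 2105 and 1018 counts.

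PARP2, a sensor of single-strand breaks, had 4281, 7014 and 2546 counts, or 157, 170 and 75.5 TPM. It was 2.60 times lower in paclitaxel-resistant cells than in parental MM468 cells (2.48 to 2.73), and in adriamycin-resistant cells the fold was 1.11 (1.07 to 1.16). APEX1 had 11688, 16810 and 8649 counts and was 2.09 times lower in paclitaxel-resistant cells (2.03 to 2.15), and its fold in adriamycin-resistant cells was 0.977 (0.954 to 1.00). PARP1, the main sensor of such breaks, had 6499, 6767 and 7886 counts, or 111, 75.6 and 109 TPM, and was lower in both lines, by 1.41 times (1.37 to 1.46) in adriamycin-resistant cells and by 1.28 times (1.23 to 1.32) in paclitaxel-resistant cells. PARP1 and PARP2 therefore stood in a different order in each resistant line: in adriamycin-resistant cells PARP2 was at 170 and PARP1 at 75.6 TPM, and in paclitaxel-resistant cells PARP2 was at 75.5 and PARP1 at 109 TPM. The glycosylases UNG and OGG1, which excise uracil and oxidized guanine, were at 0.02 and -0.03 in adriamycin-resistant cells and at -0.09 and 0.14 in paclitaxel-resistant cells.

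In mismatch repair, MSH6 and MSH3 are alternative partners in the complexes that recognize mispaired bases. MSH6 had 6734, 7000 and 8392 counts, or 108, 73.2 and 108 TPM, with log2 fold changes of -0.50 in adriamycin-resistant cells and -0.31 in paclitaxel-resistant cells, the second of which turned sign on the TPM values. MSH3 had 632, 1131 and 625 counts, or 9.62, 11.3 and 7.71 TPM, with log2 fold changes of 0.28 and -0.65. PMS2, which cuts the strand to be repaired, had 1456, 3029 and 3765 counts, or 19.5, 26.8 and 41.3 TPM, and was 1.41-fold (1.33 to 1.51) and 1.67-fold higher (1.57 to 1.78). The value of PMS2 is uncertain because near-identical copies can take or give reads: PMS2CL had 366, 636 and 967 counts and PMS2P1 had 499, 835 and 1475.

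Nucleotide excision repair had members called in both directions in paclitaxel-resistant cells. XPA, which checks the damaged strand, had 230, 332 and 791 counts, or 10.2, 10.0 and 28.3 TPM, and was 2.22-fold higher in paclitaxel-resistant cells (1.92 to 2.59), with a fold of 0.981 in adriamycin-resistant cells (0.826 to 1.17). XPC, which finds damage outside transcribed strands, had 664, 1270 and 2062 counts, or 11.5, 14.1 and 27.0 TPM, and was 2.01-fold higher (1.84 to 2.19), with 1.30-fold in adriamycin-resistant cells (1.18 to 1.43). ERCC6, also known as CSB, which couples this repair to stalled transcription, had 1889, 2518 and 794 counts, or 8.30, 8.15 and 3.28 TPM. At 3.68 times lower (3.39 to 4.005) in paclitaxel-resistant cells, ERCC6 had the largest change of any member in either line, and in adriamycin-resistant cells it was 1.10 times lower (1.04 to 1.17).

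ERCC2, a helicase of the general transcription and repair complex TFIIH, had 1468, 4697 and 3245 counts, or 25.2, 53.5 and 45.9 TPM. It was 2.17-fold higher in adriamycin-resistant cells (2.05 to 2.31) and 1.43-fold higher in paclitaxel-resistant cells (1.34 to 1.52). ERCC3, the other TFIIH helicase of the list, was at log2 fold changes of -0.04 and -0.62, so the pair was on opposite sides of parental MM468 in paclitaxel-resistant cells, while the interval of ERCC3 in adriamycin-resistant cells included 1. Of the incision nucleases, ERCC1 was at 0.29 and 0.25 and ERCC5 at -0.11 and -0.23, whereas ERCC4 was at 0.10 and 0.81, from 106, 167 and 287 counts.

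The RecQ helicases, which unwind recombination and fork intermediates, had intervals above 1 in both lines against parental MM468. BLM had 635, 1083 and 1271 counts, or 9.31, 9.23 and 13.5 TPM, and log2 fold changes of 0.21 and 0.37, although its TPM value was not higher in adriamycin-resistant cells. WRN had 583, 1029 and 1173 counts, or 5.58, 6.61 and 10.0 TPM, and log2 fold changes of 0.26 and 0.38.

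Both members of the lesion bypass and direct reversal group were lower in paclitaxel-resistant cells. POLH, the polymerase that copies past ultraviolet lesions, had 1796, 1654 and 1332 counts, or 15.8, 9.29 and 9.72 TPM, and was 1.60 times lower in adriamycin-resistant cells (1.49 to 1.71) and 2.09 times lower in paclitaxel-resistant cells (1.94 to 2.24). MGMT, which takes alkyl groups off guanine, had 445, 825 and 265 counts, or 6.83, 8.61 and 3.10 TPM. It was 2.60 times lower in paclitaxel-resistant cells (2.23 to 3.04) and 1.26-fold higher in adriamycin-resistant cells (1.12 to 1.42).

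The resistant lines were also compared with each other. Of the 57 members, 1 was at least 2-fold higher and 7 were at least 2-fold lower in paclitaxel-resistant cells than in adriamycin-resistant cells, which are 1.75% and 12.3%. The background was 19.4% higher and 14.0% lower over 19327 genes, and 11.3% and 13.3% over the 13793 genes with 100 or more counts, so the share of members that were lower was near it. XPA was the member that was higher, 2.21-fold (1.94 to 2.52). The 7 that were lower were ERCC6 by 3.42 times (3.15 to 3.71), MGMT by 3.35 times (2.92 to 3.87), PARP2 by 2.97 times (2.84 to 3.11), RAD51D, XRCC4, NHEJ1 by 2.13 times (1.95 to 2.32) and APEX1 by 2.09 times (2.04 to 2.15). Of these 8 genes, 6 had also been called in the same direction in paclitaxel-resistant cells against parental MM468, a comparison that shares the paclitaxel-resistant library. For those 6, the fold of adriamycin-resistant cells over parental MM468 cells ran from 0.906 in ERCC6 to 1.26 in MGMT.

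A few calls sat close to the 2-fold line and depended on how libraries were scaled, and that of MGMT depended on the constant added to TPM values. By library size only, paclitaxel-resistant cells had 5 members that were higher than in parental MM468 and 3 that were lower: ERCC4 and RBBP8 were gained as higher, and APEX1, NHEJ1 and POLH were lost as lower. RAD52, XPA, XPC, PARP2, ERCC6 and MGMT remained called. The 3 members higher in adriamycin-resistant cells remained called under that scaling. With 1 added to the TPM values, MGMT was also lost as lower in paclitaxel-resistant cells, at a log2 fold change of -0.93. PARP2 and ERCC6 were the lower members that remained. With 0.1 added to the FPKM values, MGMT stayed called. TPM values also turned the sign of 11 members in paclitaxel-resistant cells, none larger than 0.31 in size by the counts: RAD51D, PRKDC, ATR, MRE11, TP53BP1, FANCA, BRIP1, UNG, XRCC1, MSH6 and ERCC5.

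Members were set beside the genes that lie next to them. For each member, the median log2 fold change of the 10 nearest genes on its chromosome (5 on each side, with a mean of 100 or more counts) was compared with its own value. In adriamycin-resistant cells against parental MM468, 37 of the 57 members had the same sign as their neighbours and 50 lay within 0.5 of them on the log2 scale. These are 64.9% and 87.7% of the members, against 64.2% and 70.2% of 12943 other genes with the same minimum, and 75.4% of the members and 63.2% of the other genes lay within 0.5 of 0 in any case. In paclitaxel-resistant cells 44 members, or 77.2%, had the sign of their neighbours and 39, or 68.4%, lay within 0.5 of them, against 68.8% and 60.4% of the other genes. Across the 57 members, Pearson's r was 0.65 and Spearman's rho 0.51 in adriamycin-resistant cells, and 0.69 and 0.68 in paclitaxel-resistant cells. Across the other genes, r was 0.29 and rho 0.44, and 0.33 and 0.51. With only genes and neighbours of 10 or more counts in each library, r was 0.67 and 0.69 for the members and 0.42 and 0.45 for 12788 other genes. Points in such a correlation share libraries, and some share neighbours, so it is a description of these libraries and carries no p-value. The relation was thus present among other genes as well, and no test of the difference was made.

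**Figure D3:**
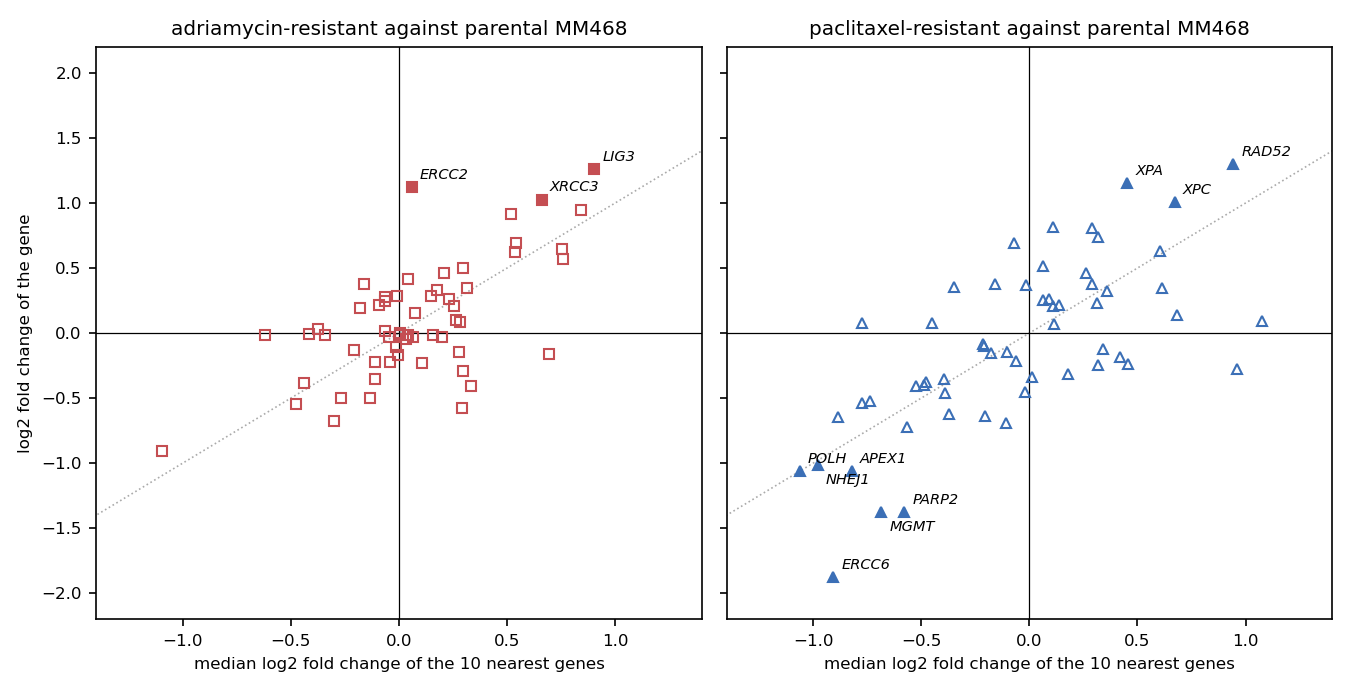
Log2 fold change against parental MM468 of each of the 57 genes (vertical) plotted against the median of its 10 nearest genes (horizontal), in adriamycin-resistant cells (left) and paclitaxel-resistant cells (right), with filled symbols for genes changed at least 2-fold and a dotted line of equality. LIG3, XRCC3, RAD52, XPA, XPC and all 6 genes lower in paclitaxel-resistant cells had the sign of their neighbours, whereas ERCC2 had neighbours at 0.06.

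The lower genes of chromosome 10 in paclitaxel-resistant cells were part of a long run. ERCC6 (chr10:49434881-49539538) and MGMT (chr10:129467241-129770983) lie far apart on that chromosome, and in GRCh38.p14 320 other genes with a mean of 100 or more counts start between them. The median log2 fold change of those 320 genes in paclitaxel-resistant cells was -1.02. Of them, 299 were below 0 and 167, or 52.2%, were at least 2-fold lower, against 13.0% of all 13000 genes with that minimum. In adriamycin-resistant cells their median was 0.10 and 2.81% were at least 2-fold lower. The 157 genes before ERCC6 on the chromosome had a median of -0.06 in paclitaxel-resistant cells, but the run did not begin at ERCC6. Within 5 Mb of its start lie 37 other genes with 10 or more counts in each library, 25 of them before it. Of these 37, 34 were below 0 in paclitaxel-resistant cells, with a median of -1.22. ERCC6 and MGMT, at -1.88 and -1.38, were lower than the median of the 320 genes between them. The proliferation marker MKI67 also lies in this run, with 15127, 18672 and 13615 counts and a log2 fold change of -0.78 in paclitaxel-resistant cells.

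PARP2 (chr14:20343635-20357904) and APEX1 (chr14:20455226-20457767) start 0.112 Mb apart. Both genes between them with a mean of 100 or more counts, TEP1 and OSGEP, were lower in paclitaxel-resistant cells too, with log2 fold changes of -1.02 and -1.31. PIP4P1, which follows APEX1, was at -1.08. The run was short: CCNB1IP1 before PARP2 was at 0.02, and PNP and METTL17 after PIP4P1 were at -0.54 and 0.06. In adriamycin-resistant cells PARP2, TEP1, OSGEP and APEX1 were at 0.15, -0.39, -0.40 and -0.03.

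LIG3 (chr17:34980512-35010872) and RAD51D (chr17:35092221-35119860) are also neighbours and had the highest and the fourth highest fold change of the members in adriamycin-resistant cells. Up to BRIP1 (chr17:61679139-61863528), 288 other genes had a median of 0.67 in adriamycin-resistant cells, 263 were above 0, and 63, or 21.9%, were at least 2-fold higher, against 5.68% of all genes with the same minimum. Their median in paclitaxel-resistant cells was 0.08. BRCA1, RAD51C and BRIP1 start within the same stretch or at its end, and their log2 fold changes in adriamycin-resistant cells were 0.65, 0.57 and -0.16, so BRIP1 did not share the sign of its neighbours, whose median was 0.70. The 306 genes before LIG3 had a median of 0.15.

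RAD54L (chr1:46247688-46278473) had neighbours that were lower in adriamycin-resistant cells. Of 75 other genes within 5 Mb of its start with 10 or more counts in each library, 70 were below 0 in adriamycin-resistant cells, with a median of -0.85, and 62 in paclitaxel-resistant cells, with a median of -0.43. NHEJ1 (chr2:219069357-219160815), in paclitaxel-resistant cells, stood at -1.02, and 28 genes between BARD1 and NHEJ1 on chromosome 2 had a median of -0.96, of which 14 were at least 2-fold lower. The 10 genes nearest to POLH (chr6:43576185-43620523) had a median of -1.06, equal to its own value of -1.06.

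Among the members higher in paclitaxel-resistant cells, RAD52 (chr12:911736-991122) and XPC (chr3:14145147-14178601) had neighbour medians of 0.94 and 0.67, and XPA (chr9:97654398-97697340) of 0.45, under its own value of 1.15. XRCC3 (chr14:103697617-103715451) had a neighbour median of 0.66 in adriamycin-resistant cells, beside its own 1.03. ERCC2 (chr19:45349837-45370573) stood apart from its surroundings: its neighbours had a median of 0.06 in adriamycin-resistant cells. These stretches were chosen after the members' values were known. What sets the values of a stretch was not tested.

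**Figure D4:**
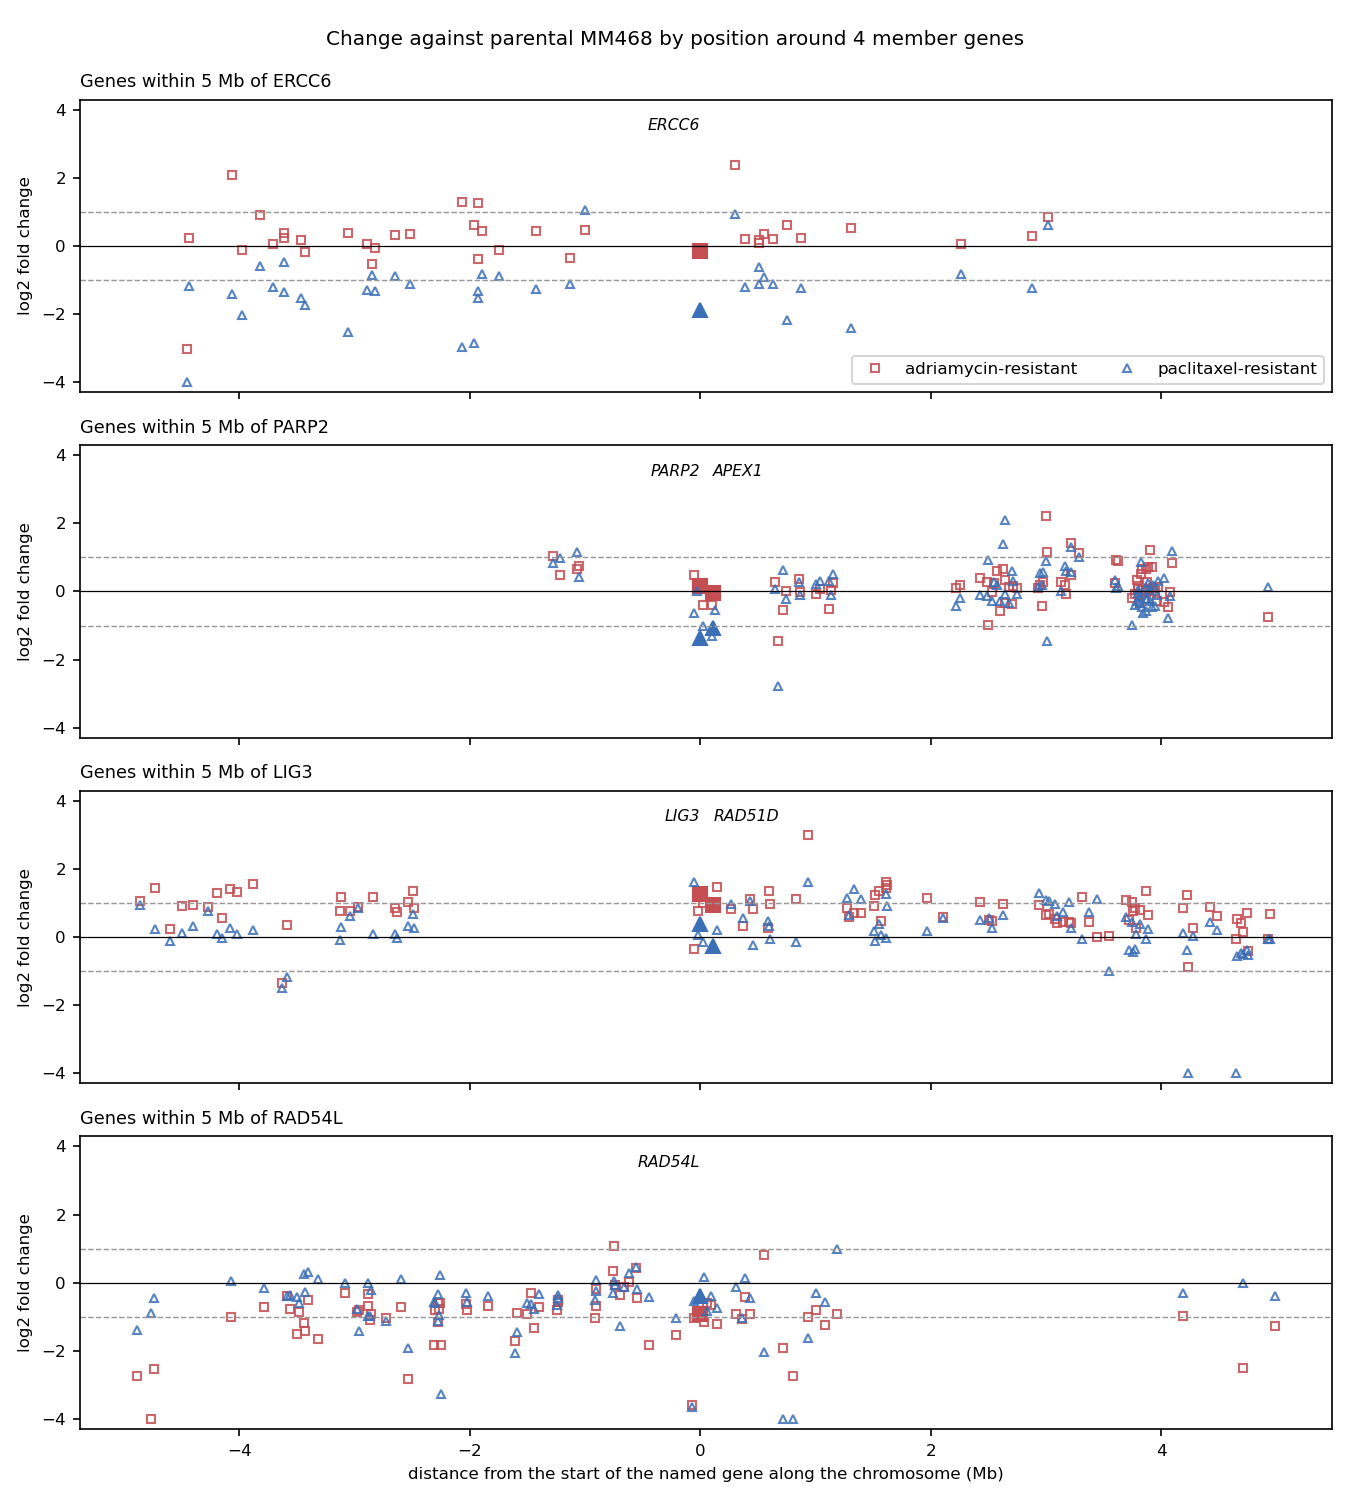
Log2 fold change against parental MM468 of genes with 10 or more counts in each library, by distance in Mb from the start of ERCC6, PARP2, LIG3 and RAD54L (squares, adriamycin-resistant cells; triangles, paclitaxel-resistant cells; large filled symbols, genes of the set; dashed lines, 2-fold; values beyond 4 are drawn at 4). Triangles lie below 0 along the ERCC6 stretch and in a narrow cluster at PARP2 and APEX1, whereas squares lie above 0 along the LIG3 stretch and below 0 around RAD54L.

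Other genes of the same pathways, 139 in all of which 138 had enough counts, were read in the same way. In adriamycin-resistant cells 2 were at least 2-fold higher and 4 lower, with a median log2 fold change of 0.12, and in paclitaxel-resistant cells 7 were higher and 12 lower, with a median of -0.02. These are 1.45% and 2.90% in adriamycin-resistant cells, where the background of genes with 100 or more counts was 6.17% and 7.95%, and 5.07% and 8.70% in paclitaxel-resistant cells, where it was 11.6% and 12.8%. EME1, a subunit of a nuclease that resolves joined DNA, was the only one called in the same direction in both lines with 100 or more counts. It had 184, 593 and 578 counts and log2 fold changes of 1.13 and 1.02. Of the 12 that were lower in paclitaxel-resistant cells, 5 lie between ERCC6 and MGMT on chromosome 10: SFR1 at -1.35, DNA2 at -1.34, SHLD2 at -1.42, DCLRE1A at -1.30 and PARG at -1.22. DNA2 is a nuclease that trims ends, and PARG degrades the polymer that PARP1 and PARP2 make. Of the 4 that were lower in adriamycin-resistant cells, CLSPN at -1.08, USP1 at -1.26 and MUTYH at -1.03 lie on chromosome 1 within 25 Mb of RAD54L. EME1 lies between LIG3 and BRIP1 on chromosome 17. The 8 genes other than EME1 are named for their positions, after their values were seen.

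Repair genes are partly tied to the cell cycle, so 24 proliferation genes were read beside them. In adriamycin-resistant cells 0 were at least 2-fold higher and 1 lower, with a median of -0.13, and in paclitaxel-resistant cells 0 were higher and 7 lower, with a median of -0.49. The 7 are 29.2% of the list, against 12.8% of all genes with 100 or more counts, of which 11.6% were higher. The 1 lower in adriamycin-resistant cells is 4.17%, against 7.95%. MCM2, a subunit of the replicative helicase, had 3756, 5247 and 1564 counts and log2 fold changes of -0.08 and -1.89, CDK1 was at -0.13 and -1.37, and TOP2A, the target of adriamycin, had 10803, 24041 and 20919 counts and was at 0.60 and 0.32. Their summed level was 2954, 2656 and 2819 TPM. Their part in the changes of the repair genes was not tested.

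Promoters were then examined for the words TTTCCCGC, TTTGGCGC, TTTCGCGC and TTTGGCGG, which resemble sites of E2F, the factor family that drives genes of DNA replication. RefSeq promoters of GRCh38.p14, from 250 bases before to 50 bases after the start, were available for 51 of the 57 members and were searched on both strands. A word was found in 8 of the 51, or 15.7%, against 5.85% of 9814 protein-coding genes with a mean of 100 or more counts and 3.43% of all 27305 promoters. The 8 were XRCC2, XRCC6, FANCC, FANCD2, LIG1, MSH3, MSH6 and XPC. Their median log2 fold change was 0.10 in adriamycin-resistant cells and -0.35 in paclitaxel-resistant cells, with a range of -0.65 to 1.00 in the latter, and for the 43 members without a word the medians were -0.01 and -0.10. A match is a description of the letters only. The 250 bases before the start are shown for the member with the largest change in each direction against parental MM468 in each line, and for XPC, the only member changed at least 2-fold whose promoter held a word. Each is written on the strand of its gene, with a searched word in capitals. The starts used for RAD52 and ERCC6 lie inside the annotated spans of these genes, which begin farther upstream.
LIG3, chr17:34980262-34980511, plus strand: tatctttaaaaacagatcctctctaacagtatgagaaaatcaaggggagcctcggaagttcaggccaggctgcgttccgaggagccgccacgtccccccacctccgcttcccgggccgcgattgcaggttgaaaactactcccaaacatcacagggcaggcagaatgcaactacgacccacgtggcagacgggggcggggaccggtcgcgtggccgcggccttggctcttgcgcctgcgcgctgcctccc
RAD54L, chr1:46247438-46247687, plus strand: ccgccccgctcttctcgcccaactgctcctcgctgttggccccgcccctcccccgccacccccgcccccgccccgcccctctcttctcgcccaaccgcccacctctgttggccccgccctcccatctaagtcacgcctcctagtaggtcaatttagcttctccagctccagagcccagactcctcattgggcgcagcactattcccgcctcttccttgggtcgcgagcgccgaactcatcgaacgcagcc
RAD52, chr12:949695-949944, minus strand: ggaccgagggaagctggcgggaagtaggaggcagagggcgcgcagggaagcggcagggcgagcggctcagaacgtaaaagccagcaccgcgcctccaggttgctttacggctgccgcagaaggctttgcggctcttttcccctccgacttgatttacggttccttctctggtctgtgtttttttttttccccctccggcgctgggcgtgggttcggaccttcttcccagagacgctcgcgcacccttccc
ERCC6, chr10:49539122-49539371, minus strand: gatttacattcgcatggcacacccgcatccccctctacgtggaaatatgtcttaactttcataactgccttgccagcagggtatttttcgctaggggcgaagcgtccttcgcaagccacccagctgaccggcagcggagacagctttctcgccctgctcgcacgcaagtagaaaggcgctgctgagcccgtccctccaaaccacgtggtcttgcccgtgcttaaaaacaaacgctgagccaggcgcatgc
XPC, chr3:14178602-14178851, minus strand: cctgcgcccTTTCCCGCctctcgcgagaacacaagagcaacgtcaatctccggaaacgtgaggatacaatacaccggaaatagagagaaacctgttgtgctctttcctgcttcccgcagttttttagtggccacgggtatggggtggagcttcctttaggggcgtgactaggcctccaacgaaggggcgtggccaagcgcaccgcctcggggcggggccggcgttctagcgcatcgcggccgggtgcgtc
The promoters of LIG3, RAD54L, RAD52 and ERCC6 held none of the 4 words, and that of XPC held 1, whose first base lies 241 bases before the start.

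Whether counting took strand into account is not given in the sources used here, so reads from genes that overlap on opposite strands cannot be told apart. In the GENCODE annotation of GRCh38 (release 29), 29 of the 57 members share exon bases with another gene, 25 of them with a gene on the other strand and 7 with a gene on the same strand. Among the 14 members called in a comparison, the overlap with a single gene reached 3754 bases for LIG3, 1452 for XRCC3 and 1308 for NHEJ1. It reached 635 bases for XPC, 535 for ERCC2 and 423 for RAD51D, while that of APEX1 with PIP4P1 was 54 bases. XPC also shares 318 bases with LSM3 on the other strand, which had 1191, 2202 and 2864 counts.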

How the data were processed

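The 3 lines, parental MM468 and its adriamycin-resistant and paclitaxel-resistant derivatives, had 1 RNA-seq library each, assigned by the sample labels. Libraries were prepared with the TruSeq Stranded mRNA kit and sequenced by Macrogen Japan Corp. The labels name the MagMAX mirVana kit for RNA extraction, whereas the methods of the study name RNeasy. The submitters' processing notes list Trimmomatic 0.39, HISAT2 2.2.1, StringTie 2.2.1 and GRCh38 without their roles, and the strand setting of the counting is not given in the sources used here. The authors deposited unnormalized read counts of 46427 genes, and beside them FPKM and TPM values of their own.

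The study's methods name no test for the RNA-seq, and with 1 library per line none could be fitted. Counts of the 2 libraries compared were normalized in R 4.3.3 with edgeR 4.0.16 (TMM, at least 10 counts in 1 of both, prior count 0.125) and read as fold changes with 95% intervals, exact and binomial, for the ratio of both counts. Called genes are those changed at least 2-fold. A count of 3, the floor, corresponds to a CPM of 0.0917 in the parental, 0.0631 in the adriamycin-resistant and 0.0694 in the paclitaxel-resistant library. Reads carry no molecular identifiers, so intervals and floors cover counting error only.

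Positions and promoters are those of RefSeq on GRCh38.p14, in which 44698 of the 46427 genes were found by NCBI Gene ID, with all 57 members. Overlaps of at least 1 exon base were taken from GENCODE release 29. Members given in full are those changed at least 2-fold in any comparison and the highest and lowest of each pathway group against parental MM468. Other pathway genes were named when changed at least 2-fold in the same direction in both lines with 100 or more counts. The level of 1 marker gene is not reported here. The members and all lists were chosen with earlier results of these data known.

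Alternatives tried were scaling by library size only, by DESeq2 1.42.0 size factors or by TMM over all 3 libraries, dropping the count minimum or raising it to 100, a prior count of 2, thresholds of 1.5-fold and 4-fold, and log2 of the TPM values with a pseudocount of 1 or of the FPKM values with 0.1. After the data were seen, neighbours within 2 Mb and neighbours with 10 or more counts in each library were added. The steps were tested on simulated data. Figures were drawn with matplotlib 3.10.9 in Python 3.11.15.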

Additional observations from a re-analysis of the deposited data

Results flagged for a closer look

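PARP2 and MGMT lay on opposite sides of parental MM468 in the resistant lines, and the change passed 2-fold in paclitaxel-resistant cells. PARP2 had a log2 fold change of 0.15 in adriamycin-resistant cells and -1.38 in paclitaxel-resistant cells. MGMT had a log2 fold change of 0.33 in adriamycin-resistant cells and -1.38 in paclitaxel-resistant cells. The call of MGMT was lost with TPM values and a pseudocount of 1, at -0.93, whereas PARP2 kept it at -1.05. With FPKM values and a pseudocount of 0.1, both genes kept the call. With 1 library per line, this difference between the lines was not tested, and both values of a gene share the parental library.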

How the results depend on the processing

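No paired analysis was possible because each line was sequenced once, and no library could be left out for the same reason. In adriamycin-resistant cells against parental MM468, the counts of called members remained at 3 higher and 0 lower under all scalings, priors and minimums of the counts and with FPKM values. TPM values with a pseudocount of 1 gave 2 higher, without XRCC3. The 1.5-fold threshold gave 8 higher and 2 lower, and the 4-fold threshold gave 0 higher. The share of all genes at these thresholds is not given here, so these counts have no background to be read against.

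In paclitaxel-resistant cells against parental MM468, 3 higher and 6 lower became 5 and 3 by library size only, 6 and 2 with TPM values, and 5 and 3 with FPKM values (TPM lost APEX1, MGMT, NHEJ1 and POLH, and FPKM all of these but MGMT), and the median of the members, -0.12, became 0.10, 0.20 and 0.13. The 1.5-fold threshold gave 8 higher and 11 lower, and the 4-fold threshold 0 and 0, again without the share of all genes. XPC was lost with DESeq2 size factors, and NHEJ1 without a count minimum and with a minimum of 100 counts.

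In paclitaxel-resistant cells against adriamycin-resistant cells, 1 higher and 7 lower became 3 and 3 by library size only and with TPM and FPKM values, with medians of 0.079, 0.25 and 0.11 in place of -0.17. RBBP8 was gained as a 2nd higher member, 2 in all, with TMM over 3 libraries and with a minimum of 100 counts, and the latter lost APEX1. The 1.5-fold threshold gave 6 and 15, and the 4-fold threshold 0 and 0, also without the share of all genes.

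Of 792 values of the named members under alternatives, 569 stayed within the counting interval, 223 left it, and 0 of those called at least 2-fold changed sign. By library size only, 7 members in paclitaxel-resistant cells against parental MM468 changed sign, none larger in size than 0.22 on the log2 scale before. TPM values turned 11 there (up to 0.31), 16 between the resistant lines (up to 0.42, POLH among them) and 4 in adriamycin-resistant cells (up to 0.21), and FPKM values 9, 11 and 6. Over all genes, library size only raised the share of called genes that were higher from 60.2% to 71.2% in paclitaxel-resistant cells against parental MM468, and from 58.2% to 71.4% against adriamycin-resistant cells. Between the lines, the median of all genes moved by 0.24. Without a count minimum, the genes called in paclitaxel-resistant cells against parental MM468 numbered 7035 higher and 3869 lower, in place of 3909 and 2585. The members had 106 or more counts in every library, and no library was replicated. The correlation of members with their neighbours stayed between 0.64 and 0.76 with neighbours chosen in the other ways.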
